A study of Mus musculus with 40 samples.

Results

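The bone morphogenetic protein (BMP) ligand genes Bmp2, Bmp3, Bmp4, Bmp5 and Bmp6, the secreted antagonist gene Chrdl1 and the target genes Id1, Id2 and Id3 were followed through the lungs of 40 mice. The 9 genes are 9 of 55536 in the deposited count tables and were found by symbol through their Ensembl identifiers. They were chosen by name with earlier results of these data in view. Which values weighed in that choice is not recorded, so the statistics describe these genes and are no independent support for selecting them. All 9 passed the filter on low counts, among the 18846 genes tested in the bleomycin model, 18834 in the Ad-TGF-β1 model and 19529 over all libraries.

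BMP ligands bind pairs of type I and type II serine/threonine kinase receptors, which phosphorylate SMAD1, SMAD5 and SMAD9, and these enter the nucleus with SMAD4 and switch on Id genes. Secreted proteins of the chordin and gremlin families trap the ligands, and the inhibitory SMADs feed back on the receptors. In the adult lung, endothelium, fibroblasts and epithelium all use the pathway, and it is known for opposing the actions of TGF-β on fibroblasts.

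All mice were C57BL/6 and their left lungs were taken on day 28, with 5 mice in each of 8 groups and 1 library per mouse. In the first model, mice received bleomycin (1.5 U/kg, into the lung through the oropharynx) followed by saracatinib, bleomycin followed by vehicle, saline followed by saracatinib, or saline followed by vehicle. In the second, mice received Ad-TGF-β1 or an empty vector through the nose, each followed by saracatinib or by vehicle, again in 4 groups. Ad-TGF-β1 is an adenovirus that expresses mouse Tgfb1 from the CMV promoter, a promoter active in many cell types. Saracatinib is an inhibitor of Src family kinases that has also been studied as an inhibitor of the BMP type I receptor encoded by Acvr1. It was given by gavage at 20 mg/kg once a day from day 10, and vehicle mice were gavaged alike.

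Levels are in CPM, the read count relative to the library's total, with totals scaled by the trimmed mean of M values (TMM), and an error is the SD over 5 mice unless named as a standard error (SE). The libraries held 8812233 to 17336972 counts over all genes. Tgfb1 had 136 to 275 CPM in Ad-TGF-β1 vehicle lungs and 58.9 to 79.0 CPM in empty vector vehicle lungs, with a log2 fold change of 1.71 ± 0.15 (SE; edgeR adjusted p = 4.7e-06). The labels' protocols speak of mice of both sexes, but in all 40 libraries 4 Y-linked genes together stood at least 340.3 times above Xist. The X-linked gene Chrdl1 was therefore read in libraries with the same sex-linked pattern throughout. Markers of lung epithelium were present everywhere, with the 6 alveolar type 2 markers summing to at least 5293 CPM in every library. On the first principal components, saline saracatinib library 5 and bleomycin vehicle library 3 lay farthest from their groups in one model, and empty vector vehicle libraries 5 and 1 in the other.

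Promoter sequence was at hand in RefSeq's table (GRCm38.p6) for 5 of the 9 genes. RefSeq's starts are not always those of GENCODE M21, and the 250 bases before the RefSeq starts of Id2, Id3 and Bmp6 lie wholly or largely in GENCODE exons, so they are not shown. The windows of Bmp4 and Bmp5, the ligand genes that were called higher with Ad-TGF-β1, lie before both starts but for 1 base of Bmp5, and are shown for that reason. Both strands were searched for a GC-rich SMAD element, GGCGCC, and for the short SMAD-binding element, GTCTG. The Bmp4 sequence (chr14:46390670-46390919, minus strand) holds neither.
Bmp4: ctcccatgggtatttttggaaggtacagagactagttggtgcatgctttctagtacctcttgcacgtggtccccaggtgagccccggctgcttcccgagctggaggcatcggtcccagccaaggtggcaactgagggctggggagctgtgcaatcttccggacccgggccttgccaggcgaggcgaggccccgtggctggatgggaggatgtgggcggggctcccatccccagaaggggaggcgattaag
In the Bmp5 sequence (chr9:75775115-75775364, plus strand) capitals mark GTCTG at position -134 from the RefSeq start.
Bmp5: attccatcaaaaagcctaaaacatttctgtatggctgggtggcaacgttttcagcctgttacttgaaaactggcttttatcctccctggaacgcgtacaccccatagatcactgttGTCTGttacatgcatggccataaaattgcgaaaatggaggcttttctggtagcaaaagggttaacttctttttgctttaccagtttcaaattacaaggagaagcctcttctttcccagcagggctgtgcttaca
Among 32851 promoter windows of this length, 9.59% held GGCGCC and 42.2% held GTCTG. A match describes the letters and was not tied to binding or to a change in level.

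On GRCm38, with the GENCODE M21 annotation, all 9 are protein-coding genes. Bmp2 lies at chr2:133552159-133562885, Bmp3 at chr5:98854415-98884396, Bmp4 at chr14:46383520-46390669, Bmp5 at chr9:75775364-75900310 and Bmp6 at chr13:38345107-38500302. Chrdl1 lies at chrX:143285674-143394262, Id1 at chr2:152736251-152737410, Id2 at chr12:25093799-25097140 and Id3 at chr4:136143497-136145755.

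Compared per kilobase of exon, Id1 and Id3 were the highest of the 9 genes in saline vehicle lungs, at 48.3 ± 7.43 and 44.3 ± 8.10 CPM per kb. Bmp6 followed at 36.0 ± 6.08, Bmp5 at 23.0 ± 2.75, Bmp4 at 18.7 ± 1.24, Bmp3 at 16.0 ± 1.42 and Id2 at 12.3 ± 1.16 CPM per kb. Chrdl1, at 4.10 ± 0.366, and Bmp2, at 1.91 ± 0.271 CPM per kb, were the lowest. The lungs' ranges overlapped between Id1 and Id3, Id3 and Bmp6, Bmp5 and Bmp4, and Bmp4 and Bmp3, so the ranges do not settle the order of these neighbours. Both genes of a pair were read in the same lungs, and their difference within each lung was not tested. In bleomycin vehicle lungs Bmp6 stood at 11.7 ± 1.65, Bmp3 at 6.20 ± 1.13 and Chrdl1 at 1.04 ± 0.283 CPM per kb, while Id2 stood at 23.0 ± 3.27.

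**Figure D1:**
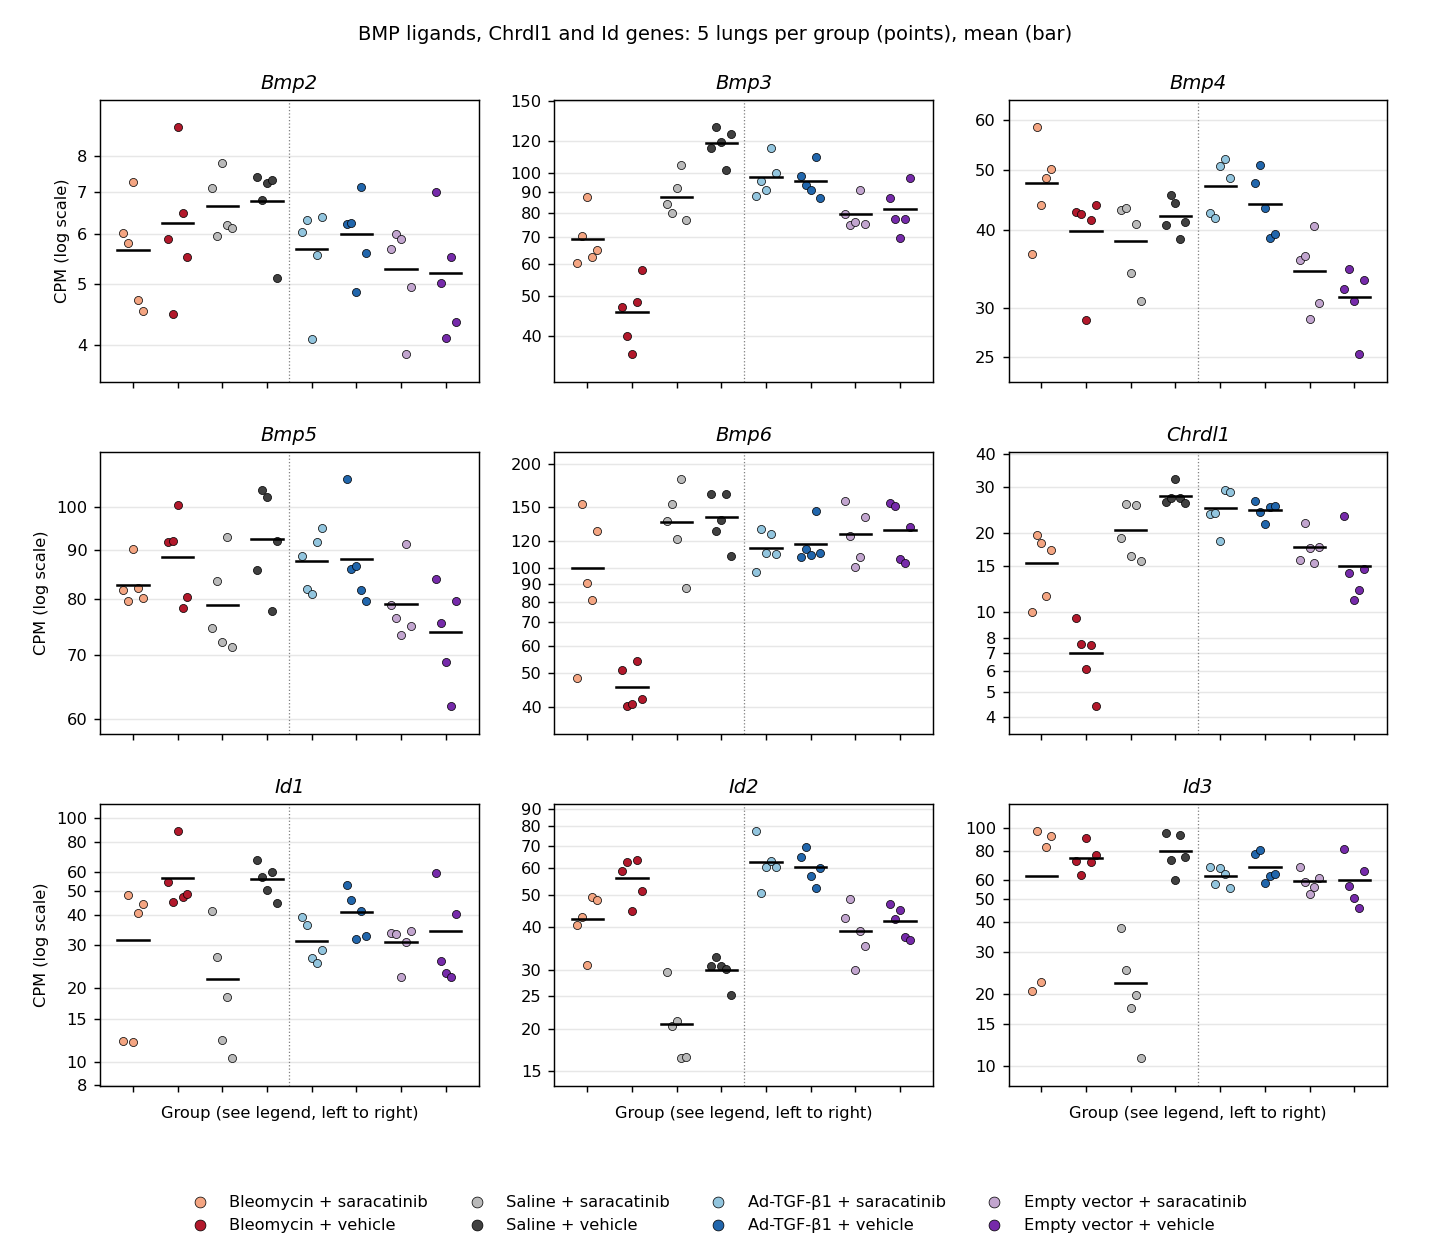
Level of each gene in CPM on a log scale (vertical axes) in the 8 groups (horizontal axes, in the order of the legend), with 1 point per lung and a bar at the mean of 5. Bleomycin vehicle lungs (second position) are lowest for Bmp3 and Chrdl1, and Id1 and Id3 reach down to 10.3 and 10.7 CPM in saline saracatinib lungs (the third position).

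Bleomycin lowered 2 ligand genes and the antagonist gene and raised 1 Id gene in vehicle-treated lungs. By edgeR's quasi-likelihood test with Benjamini-Hochberg adjustment over all genes, 1 of the 9 was called higher (20.6% of all genes tested were) and 3 were called lower (20.3% of all genes). The median log2 fold change was -0.11 over the 9 genes and -0.03 over all genes tested.

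Among the ligands, Bmp3 had 47.0, 40.1, 36.1, 48.3 and 57.9 CPM in bleomycin vehicle lungs, against 115, 129.5, 119, 102 and 125 CPM in saline vehicle lungs. Bmp3 is an unusual family member that is known to hold back other BMPs by occupying a type II receptor. The 2 groups did not overlap, and the log2 fold change was -1.38 ± 0.13 (SE; adjusted p = 3.9e-07). Bmp6 had 51.1, 40.2, 40.9, 54.1 and 42.3 CPM in bleomycin vehicle lungs, against 164, 128, 138, 164 and 109 CPM in saline vehicle lungs. Every bleomycin vehicle lung lay under every saline vehicle lung, with a log2 fold change of -1.64 ± 0.23 (SE; adjusted p = 2.5e-05). Bmp6, a ligand best known for inducing the iron hormone hepcidin in liver, overlaps Txndc5 on the opposite strand. No source used here gives the strand setting of the counting. Txndc5 itself was higher in bleomycin vehicle lungs, at 145 ± 10.3 CPM against 122 ± 5.21 CPM in saline vehicle lungs.

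Bmp2, Bmp4 and Bmp5 did not pass the test. Bmp2, a close relative of Bmp4, averaged 6.26 ± 1.65 CPM in bleomycin vehicle lungs and 6.78 ± 0.964 CPM in saline vehicle lungs. Bmp4, which shapes the branching airways of the embryo, averaged 39.9 ± 6.29 CPM in bleomycin vehicle lungs and 42.1 ± 2.78 CPM in saline vehicle lungs. For Bmp5, a relative of Bmp6, the means were 88.6 ± 9.09 CPM in bleomycin vehicle lungs and 92.5 ± 11.1 CPM in saline vehicle lungs. The lungs of both groups overlapped for all 3 genes.

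Chrdl1 encodes a chordin-like protein that binds BMPs outside the cell. It had 9.53, 7.61, 6.10, 7.49 and 4.39 CPM in bleomycin vehicle lungs, against 26.1, 27.1, 32.0, 27.1 and 26.0 CPM in saline vehicle lungs. The groups lay far apart, with a log2 fold change of -2.00 ± 0.21 (SE; adjusted p = 1.0e-06), the largest among the 9 genes in this comparison.

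The Id genes encode helix-loop-helix proteins without a DNA-binding stretch, which pair with E proteins and keep them off DNA. Id2 had 59.0, 62.6, 44.8, 63.3 and 51.2 CPM in bleomycin vehicle lungs, against 30.7, 32.7, 30.8, 30.1 and 25.2 CPM in saline vehicle lungs. All bleomycin vehicle lungs were above all saline vehicle lungs (log2 fold change 0.89 ± 0.15, SE; adjusted p = 0.00013). Id1 averaged 56.9 ± 17.9 CPM in bleomycin vehicle lungs and 56.1 ± 8.62 CPM in saline vehicle lungs. Id3 averaged 74.8 ± 9.90 CPM in bleomycin vehicle lungs and 79.4 ± 14.5 CPM in saline vehicle lungs. Neither Id1 nor Id3 was called, and both pairs of groups overlapped.

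In bulk tissue, fewer cells of a type and less RNA per cell cannot be told apart. Of 11 alveolar fibroblast markers, 10 were lower with bleomycin and none higher. Their summed level was 987 to 1500 CPM in bleomycin vehicle lungs and 2464 to 3349 CPM in saline vehicle lungs. Of 12 capillary endothelial markers 7 were lower and none higher, with sums of 1977 to 2368 CPM in bleomycin vehicle lungs and 2246 to 3832 CPM in saline vehicle lungs. Of 6 activated fibroblast markers 5 were higher and none lower, with sums of 2533 to 6450 CPM in bleomycin vehicle lungs and 1068 to 1374 CPM in saline vehicle lungs. Of 7 macrophage markers 6 were higher and none lower, with sums of 1092 to 2289 CPM in bleomycin vehicle lungs and 229 to 399 CPM in saline vehicle lungs. Ciliated cell markers were lower for 5 of 5, with sums of 158 to 449.7 CPM in bleomycin vehicle lungs and 421 to 1036.5 CPM in saline vehicle lungs. Heart muscle markers were lower for 3 of 4, adventitial fibroblast markers for 3 of 6 and smooth muscle and pericyte markers for 4 of 10. Of 6 markers of larger vessels 2 were higher and 2 lower, and of 7 alveolar type 1 markers 2 were higher. None of 6 alveolar type 2 markers was called by edgeR. No marker of these lists was at 0 in all 5 libraries of a group, and the part of these cells in the changes of Bmp3, Bmp6, Chrdl1 and Id2 was not tested.

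**Figure D2:**
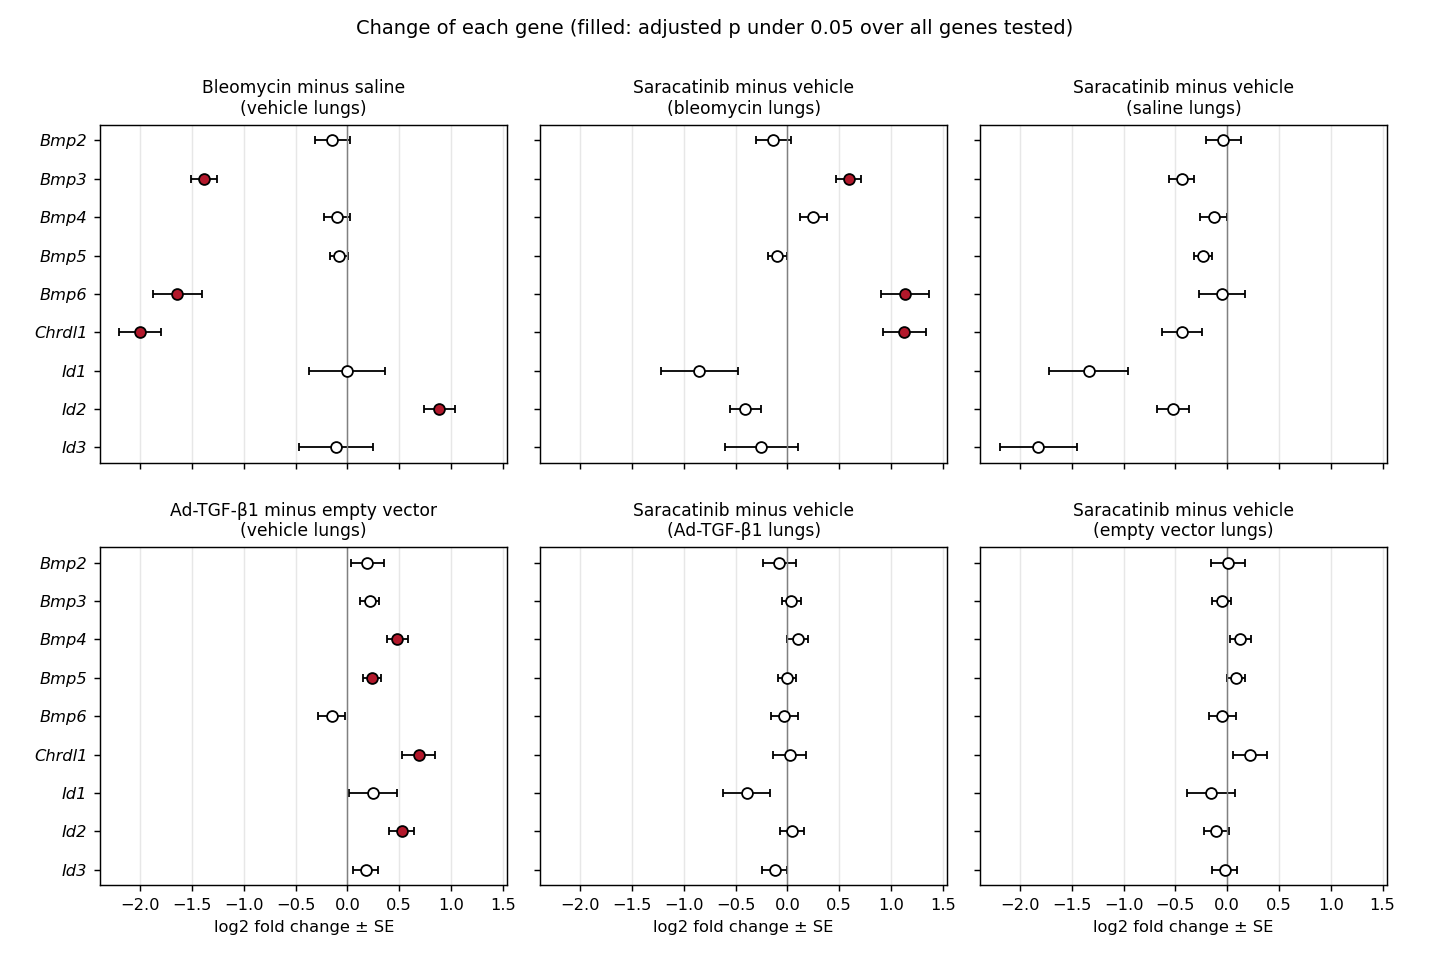
Log2 fold change of each gene with its SE (horizontal axes) in 6 comparisons, with filled points where the adjusted p over all genes tested was under 0.05. Bmp3, Bmp6 and Chrdl1 lie left of 0 with bleomycin and right of 0 with saracatinib in bleomycin lungs, and no point is filled for saracatinib in Ad-TGF-β1, saline or empty vector lungs.

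Ad-TGF-β1 raised 4 of the 9 genes, which were Bmp4, Bmp5, Chrdl1 and Id2, and lowered none. Over all genes, 11.5% were called higher and 14.3% lower by edgeR. None of the 9 was lower at an unadjusted p under 0.05, where 20.6% of all genes were. The median log2 fold change was 0.24 over the 9 genes and -0.01 over all genes. Bmp4 had 47.6, 50.8, 43.5, 38.9 and 39.3 CPM in Ad-TGF-β1 vehicle lungs, against 32.1, 34.7, 30.8, 25.3 and 33.2 CPM in empty vector vehicle lungs. The groups did not overlap, and the log2 fold change was 0.48 ± 0.10 (SE; adjusted p = 0.0025). Bmp5 had 106.8, 86.2, 86.7, 81.8 and 79.8 CPM in Ad-TGF-β1 vehicle lungs, against 84.0, 75.6, 68.9, 61.9 and 79.6 CPM in empty vector vehicle lungs. These groups overlapped, and the log2 fold change of 0.24 ± 0.09 (SE) had an adjusted p of 0.045, close to the threshold.

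Chrdl1 had 26.3, 24.0, 21.6, 25.1 and 25.3 CPM in Ad-TGF-β1 vehicle lungs, against 23.2, 14.1, 11.1, 12.1 and 14.6 CPM in empty vector vehicle lungs. Of the empty vector vehicle lungs, only library 1 reached into the range of the Ad-TGF-β1 vehicle lungs, and the log2 fold change was 0.69 ± 0.16 (SE; adjusted p = 0.0049). Id2 had 64.6, 69.2, 57.0, 52.2 and 60.2 CPM in Ad-TGF-β1 vehicle lungs, against 47.0, 42.3, 45.0, 37.5 and 36.7 CPM in empty vector vehicle lungs. The Id2 values did not overlap between the groups (log2 fold change 0.52 ± 0.12, SE; adjusted p = 0.0037). Bmp3, with 95.7 ± 8.70 CPM in Ad-TGF-β1 vehicle lungs and 81.6 ± 10.7 CPM in empty vector vehicle lungs, missed the threshold at an adjusted p of 0.088. Bmp2, Bmp6, Id1 and Id3 were not called either. Id1 averaged 41.1 ± 8.96 CPM in Ad-TGF-β1 vehicle lungs and 34.2 ± 16.0 CPM in empty vector vehicle lungs.

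The number of calls in this model depended in part on empty vector vehicle library 1, which had the highest Id1, Id3 and Chrdl1 of its group. Leaving this library out added calls and ended none. Without it 7 of the 9 genes were called, with Id1 at 0.55 (adjusted p = 0.028), Id3 at 0.31 (0.027) and Bmp3 at 0.24 (0.048) on the log2 scale. The share of all genes called without it was not counted, so the gain is not shown to be particular to these genes. The Bmp5 call held under 13 of 26 other settings. It ended without Ad-TGF-β1 vehicle library 1, 2 or 3, without empty vector vehicle library 2, 3, 4 or 5, without Ad-TGF-β1 saracatinib library 1, 3 or 4, and without empty vector saracatinib library 3. In those fits the log2 fold change of Bmp5 was 0.15 to 0.27 and its adjusted p 0.0535 to 0.192. With all libraries, the Bmp5 call also ended with no filter on low counts (adjusted p = 0.066) and with only the 2 groups compared in the fit (0.10). Alveolar type 2 markers moved alongside, with 5 of 6 higher and none lower. Their sums were 9111 to 10546 CPM in Ad-TGF-β1 vehicle lungs and 5293 to 9064 CPM in empty vector vehicle lungs. Of the 11 alveolar fibroblast markers 2 were higher and 2 lower, with sums of 1584 to 2071 CPM in Ad-TGF-β1 vehicle lungs and 1257 to 2277 CPM in empty vector vehicle lungs. Of 7 macrophage markers 6 were higher, with sums of 488 to 597 CPM in Ad-TGF-β1 vehicle lungs and 147 to 470 CPM in empty vector vehicle lungs. Ciliated cell markers were lower for 5 of 5, with sums of 341 to 505 CPM in Ad-TGF-β1 vehicle lungs and 482 to 1010.1 CPM in empty vector vehicle lungs. Of 10 smooth muscle and pericyte markers 6 were lower and 1 higher, with sums of 739.7 to 1276 CPM in Ad-TGF-β1 vehicle lungs and 1030.1 to 1740.5 CPM in empty vector vehicle lungs. Markers of adventitial fibroblasts and of larger vessels were lower for 2 of 6 each, activated fibroblast markers higher for 3 of 5 tested, and alveolar type 1 markers higher for 2 of 7. Of 12 capillary endothelial markers 2 were higher, and none of 4 heart muscle markers was called by edgeR. The part of these cells in the calls was not tested.

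The injuries differed for 4 of the genes when both were fitted over all 40 libraries, a comparison that sets 2 separately controlled models side by side. The means of the 2 controls differed as well. Chrdl1 averaged 27.7 ± 2.47 CPM in saline vehicle lungs and 15.0 ± 4.78 CPM in empty vector vehicle lungs. In the same order Bmp3 averaged 118 ± 10.5 and 81.6 ± 10.7 CPM, Bmp4 42.1 ± 2.78 and 31.2 ± 3.62 CPM, and Bmp6 140 ± 23.7 and 129 ± 23.8 CPM. The part of the controls in the 4 differences was not tested. Bmp3, Bmp4, Bmp6 and Chrdl1 were called lower in the bleomycin effect than in the Ad-TGF-β1 effect, against 6.47% of all genes. The difference of the log2 fold changes was -2.68 ± 0.27 for Chrdl1 (SE; edgeR adjusted p = 3.9e-08) and -1.59 ± 0.16 for Bmp3 (SE; adjusted p = 3.2e-08). For Bmp6 it was -1.48 ± 0.28 (SE; adjusted p = 0.00034) and for Bmp4 -0.57 ± 0.17 (SE; adjusted p = 0.017). By limma voom Bmp5 (-0.47, adjusted p = 0.0057) and Bmp2 (-0.56, adjusted p = 0.045) were called too. By edgeR Bmp5 was called without the 2 libraries of each table farthest from their group (-0.48, adjusted p = 0.0098). It was also called without Ad-TGF-β1 vehicle library 5, empty vector vehicle library 1 or saline vehicle library 4 (adjusted p 0.026 to 0.048). For Id2 the difference of 0.37 ± 0.20 (SE) did not pass (adjusted p = 0.22), so the 2 rises were not shown to differ in size.

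Saracatinib raised the 3 genes that bleomycin had lowered. Of the 9 genes, Bmp3, Bmp6 and Chrdl1 were called higher in bleomycin saracatinib lungs than in bleomycin vehicle lungs, where 5.31% of all genes were. None was called lower by edgeR, against 8.71% of all genes. Id1 and Id2 were lower at an unadjusted p under 0.05, where 16.3% of all genes were. The median log2 fold change was -0.10 over the 9 genes and 0.01 over all genes. This comparison shares the bleomycin vehicle lungs with the comparison of bleomycin and saline, so opposite signs in both are not independent of each other. Bmp3 had 60.4, 70.2, 87.6, 62.6 and 64.9 CPM in bleomycin saracatinib lungs, against 47.0, 40.1, 36.1, 48.3 and 57.9 CPM in bleomycin vehicle lungs. The groups did not overlap (log2 fold change 0.59 ± 0.12, SE; edgeR adjusted p = 0.0054).

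Bmp6 had 48.4, 153, 90.7, 81.2 and 128 CPM in bleomycin saracatinib lungs, against 51.1, 40.2, 40.9, 54.1 and 42.3 CPM in bleomycin vehicle lungs. The treated lungs were spread widely, and library 1 stayed within the range of the vehicle lungs. The log2 fold change was 1.13 ± 0.23 (SE; adjusted p = 0.0046). Chrdl1 had 10.01, 19.6, 18.3, 11.5 and 17.2 CPM in bleomycin saracatinib lungs, against 9.53, 7.61, 6.10, 7.49 and 4.39 CPM in bleomycin vehicle lungs. There the groups did not overlap, although library 1 with saracatinib lay just above the highest vehicle lung (log2 fold change 1.13 ± 0.21, SE; adjusted p = 0.0027). These 3 calls held under all 26 other settings, each left-out library included.

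The other ligand genes were not called. Bmp4 averaged 47.5 ± 8.06 CPM in bleomycin saracatinib lungs and 39.9 ± 6.29 CPM in bleomycin vehicle lungs. Bmp5 averaged 82.9 ± 4.34 CPM in bleomycin saracatinib lungs and 88.6 ± 9.09 CPM in bleomycin vehicle lungs. Bmp2 averaged 5.67 ± 1.11 CPM in bleomycin saracatinib lungs and 6.26 ± 1.65 CPM in bleomycin vehicle lungs. For Id2 the values were 40.6, 43.0, 31.1, 49.2 and 48.4 CPM in bleomycin saracatinib lungs, against 59.0, 62.6, 44.8, 63.3 and 51.2 CPM in bleomycin vehicle lungs. The groups overlapped at their edges, and Id2 had a log2 fold change of -0.40 ± 0.15 (SE) with an adjusted p of 0.071. Its adjusted p was 0.037 without saline saracatinib library 1, 0.020 with limma voom and 0.049 with DESeq2.

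Alveolar fibroblast markers moved with these genes here too, with 8 of 11 higher and none lower with saracatinib. Their sums were 1520 to 2465 CPM in bleomycin saracatinib lungs and 987 to 1500 CPM in bleomycin vehicle lungs. Of the 12 capillary endothelial markers 1 was higher, with sums of 2011 to 3537 CPM in bleomycin saracatinib lungs and 1977 to 2368 CPM in bleomycin vehicle lungs. Activated fibroblast markers were lower for 5 of 6, with sums of 1143 to 1916 CPM in bleomycin saracatinib lungs and 2533 to 6450 CPM in bleomycin vehicle lungs. Macrophage markers were lower for 6 of 7, with sums of 462 to 866 CPM in bleomycin saracatinib lungs and 1092 to 2289 CPM in bleomycin vehicle lungs. The part of these cells in the changes of Bmp3, Bmp6 and Chrdl1 was not tested.

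Against saline vehicle lungs, bleomycin saracatinib lungs were still lower in Bmp3 and Chrdl1 and higher in Id2, while over all genes 3.39% were lower and 5.83% higher. The log2 fold change was -0.79 ± 0.12 for Bmp3 (SE; edgeR adjusted p = 0.00068) and -0.87 ± 0.19 for Chrdl1 (SE; adjusted p = 0.0074), and neither gene's groups overlapped. Bmp6, with 100.2 ± 40.9 CPM in bleomycin saracatinib lungs and 140.4 ± 23.7 CPM in saline vehicle lungs, was not called (log2 fold change -0.51 ± 0.23, SE; adjusted p = 0.17). Id2 stood at 42.5 ± 7.33 CPM in bleomycin saracatinib lungs and 29.9 ± 2.82 CPM in saline vehicle lungs (log2 fold change 0.48 ± 0.15, SE; adjusted p = 0.049). The Id2 call held under 11 of 26 other settings. It ended without bleomycin saracatinib library 1, 2, 4 or 5, without any 1 of the 5 saline vehicle libraries, without bleomycin vehicle library 1, 2, 4 or 5, and without saline saracatinib library 3. In those fits its log2 fold change was 0.42 to 0.51 and its adjusted p 0.0537 to 0.131. The Id2 call also ended with no filter on low counts (adjusted p = 0.055).

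In Ad-TGF-β1 lungs, saracatinib changed none of the 9 genes by edgeR's quasi-likelihood test, by DESeq2 or by limma voom, and none had an unadjusted p under 0.05. Over all genes, edgeR called 0.0903%, and 8.76% had an unadjusted p under 0.05. Bmp3 averaged 98.0 ± 10.6 CPM in Ad-TGF-β1 saracatinib lungs and 95.7 ± 8.70 CPM in Ad-TGF-β1 vehicle lungs. Bmp6 averaged 114.7 ± 13.0 CPM in Ad-TGF-β1 saracatinib lungs and 117.5 ± 16.3 CPM in Ad-TGF-β1 vehicle lungs. Chrdl1 averaged 24.8 ± 4.31 CPM in Ad-TGF-β1 saracatinib lungs and 24.5 ± 1.79 CPM in Ad-TGF-β1 vehicle lungs. Id1 averaged 31.3 ± 6.12 CPM in Ad-TGF-β1 saracatinib lungs and 41.1 ± 8.96 CPM in Ad-TGF-β1 vehicle lungs, with an adjusted p of 0.64. Ad-TGF-β1 saracatinib lungs were higher than empty vector vehicle lungs in Bmp4 (log2 fold change 0.58 ± 0.10, SE; adjusted p = 0.0025), Chrdl1 (0.71 ± 0.16, SE; adjusted p = 0.0092) and Id2 (0.57 ± 0.12, SE; adjusted p = 0.0064). These were 3 of 9 genes higher, against 5.78% of all genes, and 5 of 9 were called without empty vector vehicle library 1. The share of all genes called without that library was not counted. The Chrdl1 call was lost when only the 2 groups compared were fitted (adjusted p = 0.055).

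The saracatinib effect differed between the models for Bmp3, Bmp6 and Chrdl1, and 1.05% of all genes were called in this direction. Bmp6 had a difference of log2 fold changes of 1.17 ± 0.28 (SE; edgeR adjusted p = 0.022), Chrdl1 of 1.11 ± 0.27 (SE; adjusted p = 0.024) and Bmp3 of 0.56 ± 0.15 (SE; adjusted p = 0.047). None of the 3 was called without bleomycin saracatinib library 2 or without bleomycin vehicle library 3, and 1 was called without Ad-TGF-β1 saracatinib library 3 or bleomycin saracatinib library 3. Without bleomycin saracatinib library 2, Bmp6 had a difference of 0.97 (adjusted p = 0.067), Chrdl1 1.01 (0.064) and Bmp3 0.55 (0.087). Without bleomycin vehicle library 3 the differences were 1.13 (0.059) for Bmp6, 1.07 (0.064) for Chrdl1 and 0.48 (0.12) for Bmp3. The Bmp3 call held under 19 of 46 other settings. It ended without Ad-TGF-β1 saracatinib library 1, 2, 3 or 5, Ad-TGF-β1 vehicle library 1, 2, 3 or 4, bleomycin saracatinib library 2, 3 or 5, or bleomycin vehicle library 2 or 3. It ended too without empty vector saracatinib library 1, 2, 3 or 5, empty vector vehicle library 2 or 4, saline saracatinib library 1 or 3, or saline vehicle library 1, 2 or 3. In those fits the Bmp3 difference was 0.45 to 0.58 and its adjusted p 0.0504 to 0.126. The Bmp3 call also ended with no filter on low counts (adjusted p = 0.070), with only the groups compared (0.074) and without the 2 libraries of each table farthest from their group (0.076). The Chrdl1 call also ended without Ad-TGF-β1 saracatinib library 3 (1.03, adjusted p = 0.0516) and bleomycin saracatinib library 3 (1.04, 0.0603).

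In lungs without injury, saracatinib was given after saline or after the empty vector. In saline lungs none of the 9 genes was called by edgeR or limma voom, 1 was called by DESeq2, and 0.00531% of all genes were called by edgeR. The share of all genes that DESeq2 called there was not counted. At an unadjusted p under 0.05, 6 of the 9 were lower with saracatinib and none higher, where 4.25% of all genes were lower and 3.18% higher. The median log2 fold change was -0.44 over the 9 genes and 0.01 over all genes. Id3 had 38.0, 25.1, 17.4, 19.7 and 10.7 CPM in saline saracatinib lungs, against 94.9, 73.5, 60.5, 93.3 and 75.0 CPM in saline vehicle lungs. Every lung with saracatinib lay under every lung with vehicle. The log2 fold change was -1.82 ± 0.37 (SE), with an adjusted p of 0.18 by edgeR and 0.0034 by DESeq2.

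Id1 had 41.5, 26.9, 12.2, 18.4 and 10.3 CPM in saline saracatinib lungs, against 67.2, 57.0, 50.8, 60.3 and 44.8 CPM in saline vehicle lungs. The Id1 groups did not overlap, and the log2 fold change of -1.34 ± 0.38 (SE) had an adjusted p of 0.39. Id2 had 29.5, 20.3, 21.0, 16.3 and 16.5 CPM in saline saracatinib lungs, against 30.7, 32.7, 30.8, 30.1 and 25.2 CPM in saline vehicle lungs. For Id2 the first saracatinib lung lay among the vehicle lungs, with a log2 fold change of -0.53 ± 0.15 (SE; adjusted p = 0.39). Chrdl1 averaged 20.5 ± 4.89 CPM in saline saracatinib lungs and 27.7 ± 2.47 CPM in saline vehicle lungs without overlap (adjusted p = 0.64). Bmp3 averaged 87.4 ± 11.2 CPM in saline saracatinib lungs and 118 ± 10.5 CPM in saline vehicle lungs (adjusted p = 0.38). No cell type marker was called with saracatinib in saline lungs, where edgeR called 0.00531% of all genes. The median log2 fold change was -0.39 for 11 alveolar fibroblast markers and -0.44 for 7 macrophage markers. It was 0.21 for 12 capillary endothelial, 0.38 for 5 ciliated cell and 0.68 for 4 heart muscle markers. Alveolar fibroblast sums were 2002 to 3188 CPM in saline saracatinib lungs and 2464 to 3349 CPM in saline vehicle lungs. Capillary endothelial sums were 2096 to 4240 and 2246 to 3832 CPM in the same order. The part of these cells was not tested.

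The same Id genes were uneven within the bleomycin saracatinib group. Id1 had 12.1, 48.2, 12.0, 40.8 and 44.4 CPM in bleomycin saracatinib lungs, against 54.8, 45.3, 88.2, 47.3 and 48.8 CPM in bleomycin vehicle lungs. Id3 had 20.6, 96.5, 22.4, 83.0 and 91.9 CPM in bleomycin saracatinib lungs, against 72.1, 63.2, 90.2, 71.6 and 76.9 CPM in bleomycin vehicle lungs. Libraries 1 and 3 with saracatinib were low in both genes, and the other 3 lay at or near the vehicle lungs. Over the group, Id1 had a log2 fold change of -0.85 ± 0.37 (SE; edgeR adjusted p = 0.13), and Id3 had an adjusted p of 0.69.

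Of 11 other target genes and in-cell inhibitors tested, 5 had their 2 lowest bleomycin saracatinib values in these same 2 lungs, which were Atoh8, Smad6, Smad7, Hey1 and Bambi. The 2 lungs had been singled out by Id1 and Id3. The share of all genes lowest in them was not counted, so this count is no independent support. Between saline saracatinib and saline vehicle lungs, 4 of the 11 did not overlap, which were Atoh8, Smad6, Smad7 and Hey1. The share of all genes without overlap was not counted. None of the 11 was called, and edgeR called 0.00531% of all genes. Atoh8, a transcription factor gene that BMP signals induce in endothelium, had 7.43, 20.6, 8.14, 19.6 and 20.5 CPM in bleomycin saracatinib lungs, against 17.0, 11.9, 16.3, 16.5 and 20.9 CPM in bleomycin vehicle lungs. In saline saracatinib lungs Atoh8 had 8.48, 9.54, 7.24, 9.59 and 5.41 CPM, against 19.3, 18.4, 15.7, 19.6 and 16.6 CPM in saline vehicle lungs. Smad6 encodes an inhibitory SMAD of the BMP branch and had 28.7, 162, 40.2, 82.0 and 118 CPM in bleomycin saracatinib lungs, against 67.8, 68.3, 114, 56.3 and 62.8 CPM in bleomycin vehicle lungs. In saline lungs Smad6 had 95.5, 78.3, 61.1, 79.2 and 52.1 CPM with saracatinib, against 203, 152, 149.5, 198 and 103 CPM with vehicle. For Smad6 the low lungs with bleomycin and saracatinib were again libraries 1 and 3. In saline lungs the log2 fold change was -1.14 ± 0.34 for Smad6 (SE; edgeR adjusted p = 0.40), -1.15 ± 0.25 for Atoh8 (SE; adjusted p = 0.24) and -0.89 ± 0.20 for Smad7 (SE; adjusted p = 0.25), so none of the 3 was called. These genes were named after their values were seen.

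**Figure D3:**
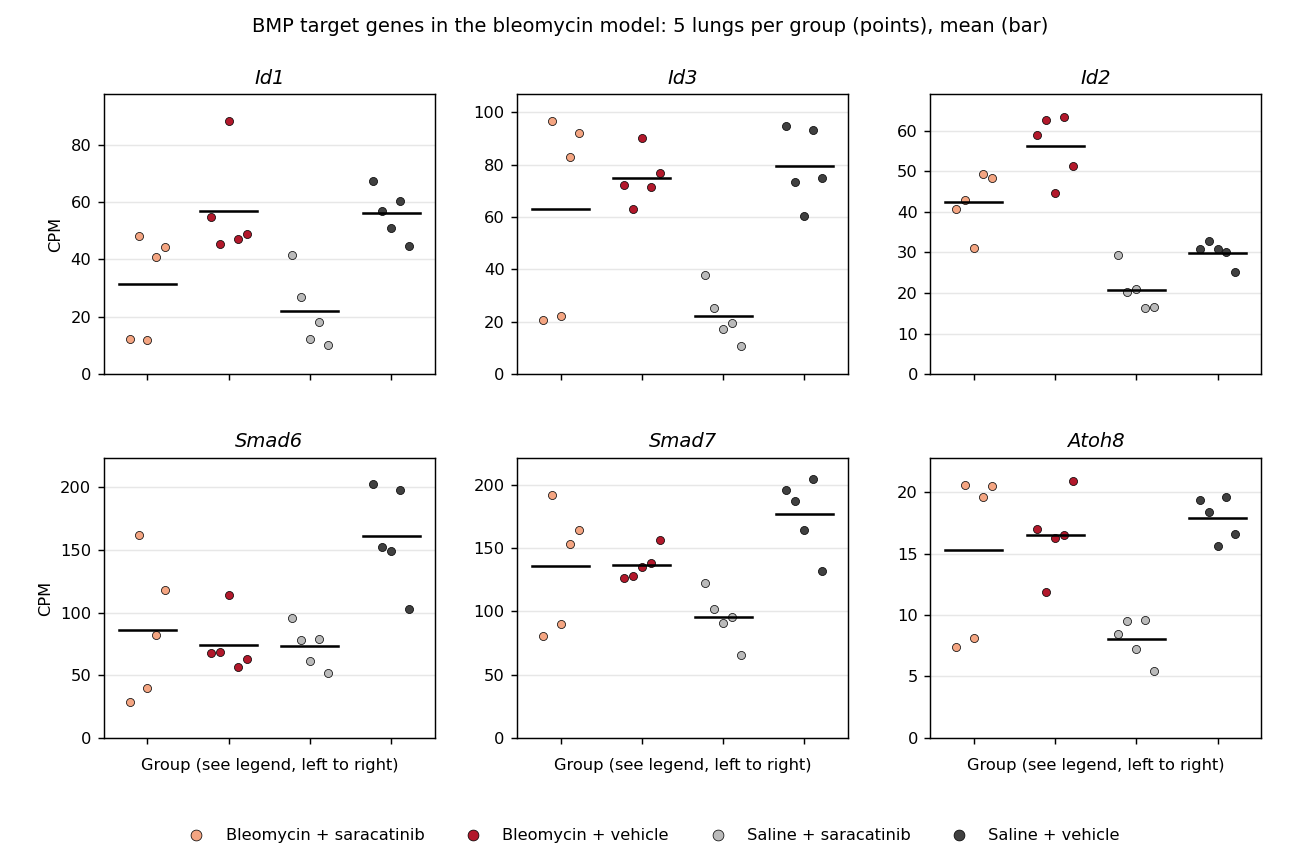
Level in CPM (vertical axes) of Id1, Id3, Id2, Smad6, Smad7 and Atoh8 in the 4 groups of the bleomycin model (horizontal axes, in the order of the legend), with 1 point per lung and a bar at the mean of 5. Saline saracatinib lungs (the third position) lie below saline vehicle lungs without overlap for Id1 and Id3, and for Smad6, Smad7 and Atoh8, which were chosen after their values were seen, and bleomycin saracatinib lungs (the first position) divide into 2 low and 3 higher lungs for Id1, Id3 and Atoh8.

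In empty vector lungs, none of the 9 genes was called with saracatinib by edgeR, DESeq2 or limma voom. None of the 9 had an unadjusted p under 0.05, against 11.1% of all genes, and edgeR called 0.00531% of all genes. Id3 averaged 59.6 ± 5.91 CPM in empty vector saracatinib lungs and 60.1 ± 14.1 CPM in empty vector vehicle lungs. Id1 averaged 30.9 ± 5.01 CPM in empty vector saracatinib lungs and 34.2 ± 16.0 CPM in empty vector vehicle lungs. Without empty vector vehicle library 1, Chrdl1 was called higher with saracatinib (log2 fold change 0.44, adjusted p = 0.049). The Id3 difference between the saracatinib effects in saline and in empty vector lungs was not tested.

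The interaction term compares the saracatinib effect in injured lungs with that in uninjured ones. In the bleomycin model it was called for Bmp3 and Chrdl1, both higher, against 0.61% of all genes. The difference of log2 fold changes was 1.03 ± 0.18 for Bmp3 (SE; edgeR adjusted p = 0.010) and 1.57 ± 0.28 for Chrdl1 (SE; adjusted p = 0.014). Part of each difference came from saline lungs. There the log2 fold change with saracatinib was -0.44 for Bmp3 and -0.44 for Chrdl1, neither of them called. In bleomycin lungs it was 0.59 for Bmp3 and 1.13 for Chrdl1. For Bmp6 the difference was 1.18 ± 0.32 (SE; edgeR adjusted p = 0.071) and for Id3 1.57 ± 0.51 (SE; adjusted p = 0.11). With all libraries, DESeq2 called Bmp6 (1.18, adjusted p = 0.0165). Without bleomycin saracatinib library 1, edgeR called Bmp6 at 1.36 (adjusted p = 0.0165) and Id3 at 1.80 (adjusted p = 0.037) as well. In the Ad-TGF-β1 model the interaction was called for none of the 9 genes by edgeR, DESeq2 or limma voom. None of the 9 had an unadjusted p under 0.05, against 10.3% of all genes, and 0% of all genes were called by edgeR.

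Of 56 other genes of the pathway, from ligands to E proteins, 44 were tested in each model. Bleomycin raised 11 of them and lowered 15 in vehicle lungs, beside 20.6% of all genes higher and 20.3% lower. Grem1, which encodes gremlin, a trap for BMP2, BMP4 and BMP7, had 21.3, 36.6, 61.9, 14.2 and 21.1 CPM in bleomycin vehicle lungs, against 1.21, 3.40, 3.97, 2.44 and 2.76 CPM in saline vehicle lungs. Fst, which encodes the activin binder follistatin, had 17.6, 35.1, 78.1, 20.4 and 19.7 CPM in bleomycin vehicle lungs, against 5.44, 5.56, 8.25, 3.17 and 5.53 CPM in saline vehicle lungs. Neither gene's groups overlapped, and the log2 fold changes were 3.46 ± 0.53 for Grem1 (SE; edgeR adjusted p = 4.8e-05) and 2.58 ± 0.39 for Fst (SE; adjusted p = 4.0e-05). Sost, an antagonist gene best known for WNT signalling, fell by 3.55 on the log2 scale (SE 0.89, adjusted p = 0.0037) from low levels of at most 3.08 CPM in saline vehicle lungs. Like Chrdl1, the antagonist genes Crim1 and Twsg1 were lower, and of 11 antagonist genes tested besides Chrdl1, 2 rose and 4 fell, beside the same shares of all genes. Crim1 and Twsg1 were named after their values were seen.

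Of 10 receptor genes tested 1 rose and 5 fell with bleomycin, and of 6 other target genes 2 fell, beside the same shares of all genes. Of 5 in-cell inhibitor genes 1 rose and 3 fell, beside the same shares. Among those that fell was Smad6, with a log2 fold change of -1.15 ± 0.34 (SE; edgeR adjusted p = 0.011). Of the target genes, Tmem100, an endothelial gene induced through the receptor of Acvrl1, had -1.27 ± 0.30 (SE; adjusted p = 0.0024). Id4, the remaining Id gene, had -0.84 ± 0.18 (SE; adjusted p = 0.0012), opposite in sign to Id2. All 3 of the other ligand genes tested rose, with 1.46 ± 0.27 (SE; adjusted p = 0.00033) for Gdf6.

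Saracatinib raised 4 and lowered 4 of the 44 genes in bleomycin lungs, beside 5.31% of all genes higher and 8.71% lower. Grem1 had 13.5, 1.34, 3.71, 9.73 and 3.15 CPM in bleomycin saracatinib lungs, under all 5 bleomycin vehicle lungs (log2 fold change -2.30 ± 0.48, SE; edgeR adjusted p = 0.0053). Fst had 9.00, 4.76, 6.16, 11.6 and 6.06 CPM in bleomycin saracatinib lungs, also under all bleomycin vehicle lungs (-2.18 ± 0.37, SE; adjusted p = 0.0022). Chrdl1 and Crim1 moved the other way, with 0.33 ± 0.09 for Crim1 (SE; adjusted p = 0.024). Bambi, a decoy receptor gene, was higher by 0.54 ± 0.15 (SE; adjusted p = 0.021) and the type II receptor gene Acvr2b by 0.57 ± 0.15 (SE; adjusted p = 0.015). The lower ones besides Grem1 and Fst were Acvr1, by -0.26 ± 0.06 (SE; adjusted p = 0.013), and Smad5, by -0.18 ± 0.05 (SE; adjusted p = 0.016).

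**Figure D4:**
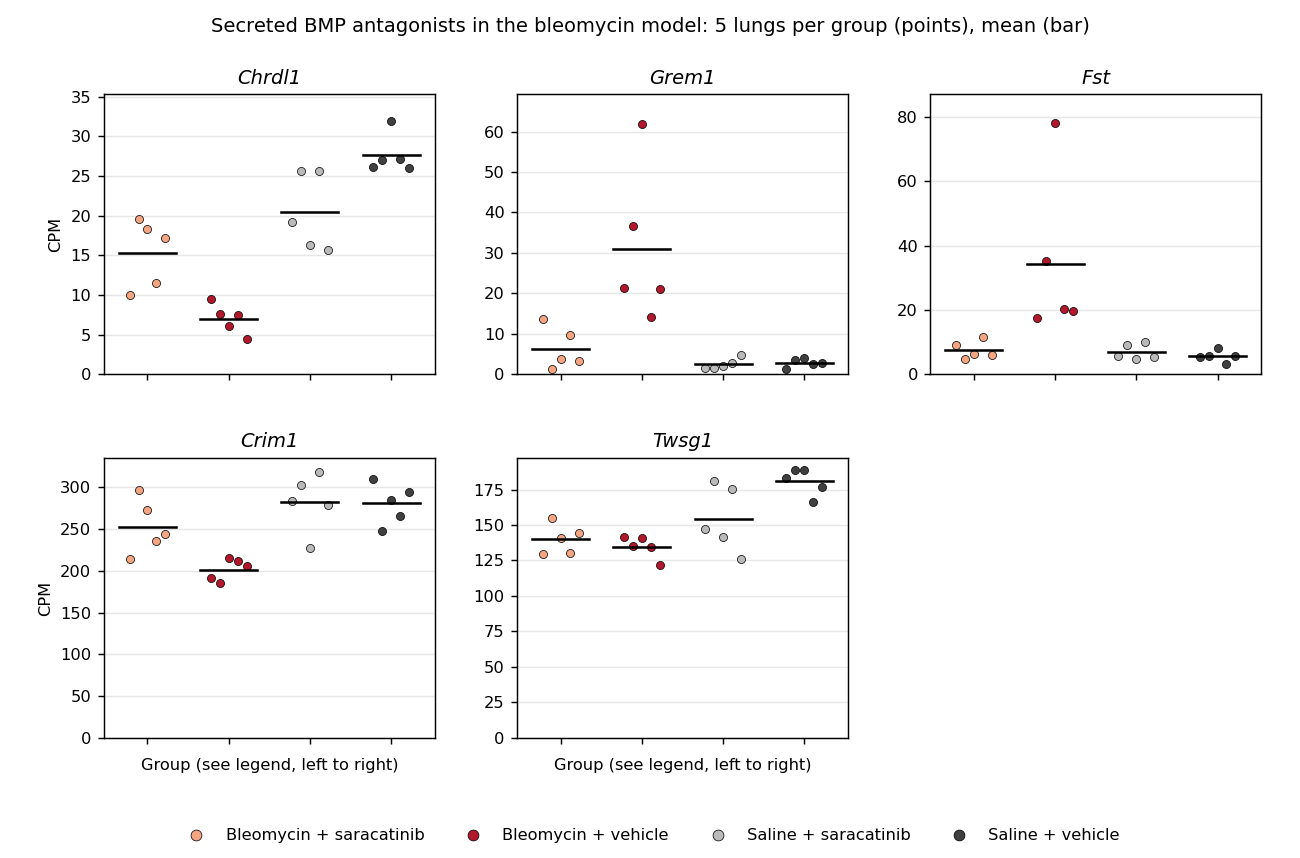
Level in CPM (vertical axes, from 0) of 5 secreted BMP antagonists in the 4 groups of the bleomycin model (horizontal axes, in the order of the legend), with 1 point per lung and a bar at the mean of 5. Bleomycin vehicle lungs (the second position) are lowest for Chrdl1 and highest for Grem1 and Fst, and in bleomycin saracatinib lungs (the first position) the means of these 3 genes lie between those of bleomycin vehicle and saline vehicle lungs.

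Ad-TGF-β1 raised 3 and lowered 8 of the 44 genes in vehicle lungs, beside 11.5% of all genes higher and 14.3% lower. Gdf6 had a log2 fold change of 1.59 ± 0.31 (SE; edgeR adjusted p = 0.0015), and the type I receptor gene Bmpr1b had -1.27 ± 0.24 (SE; adjusted p = 0.0013). Id4 had -0.71 ± 0.14 (SE; adjusted p = 0.0015) and Bmp7 -0.72 ± 0.22 (SE; adjusted p = 0.020). Tll1, Hey2, Rgma and Acvr2b fell by 0.36 to 0.58 on the log2 scale. Grem1 was not called there, with at most 2.14 CPM in an Ad-TGF-β1 vehicle lung. With saracatinib in Ad-TGF-β1 lungs none of the 44 genes was called by edgeR, beside 0.0903% of all genes. Bmpr1b, Acvr2b, Bmp1 and Hey2 had an unadjusted p under 0.05, as did 8.76% of all genes.

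To find genes with like patterns, group means of log2 CPM were compared. Over the 8 group means, centred per gene, Krt23 and Gm12216 were among the nearest to Bmp6, with root mean square differences of 0.0827 and 0.0829 on the log2 scale. These were drawn from 17683 genes with a mean of at least 1 CPM, for the 6 genes whose group means span at least 1 on the log2 scale. Bmp3 was nearest to D630029K05Rik, Tnfaip8l3 and Gm44974, at 0.0929 to 0.122, and Chrdl1 to Gm20629, Hpgd and Abca14, at 0.191 to 0.197. Id2 was nearest to Itgae, Ppfia4 and Igsf6, with differences of 0.0916 to 0.108. For Id1 the nearest were Fam83a, Atoh8 and Ccdc18, and for Id3 Gm38811, 9430099M06Rik and 1700015C17Rik, with differences of 0.216 to 0.329 over both genes.

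Close relatives among these genes share little exact sequence. The longest identical stretch between the annotated transcripts (GENCODE M21) was 23 bases for Bmp5 and Bmp6, 25 bases for Bmp6 and Bmp7, 19 bases for Id2 and Id3, 12 bases for Id1 and Id3 and 11 bases for Id1 and Id2. Bmp4, Bmp5 and Bmp6 overlap other annotated genes, and without the strand setting reads over the overlaps cannot be assigned with certainty. Of the genes that overlap them, all but Txndc5 stayed at or under 5.21 CPM in every library.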

How the data were processed

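RNA-seq was done on left lungs of 40 mice after rRNA depletion with a stranded kit, per the labels' protocols. The deposited files hold raw read counts per gene. Reads were aligned with STAR 2.6.1d and the counts made by the authors with featureCounts of Subread 1.6.3, with Picard and edgeR also named, per the submitters' processing notes. The notes name both mm9 and GRCm38, and 5 mice per group were not pooled. Symbols were joined by Ensembl ID from GENCODE M21. Normalized tables were not used. The members and the gene lists were chosen with earlier results of these data known.

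Counts were filtered by edgeR's filterByExpr, scaled by TMM and fitted with edgeR 4.0.16 (quasi-likelihood, R 4.3.3), with 1 coefficient per group, over the 20 libraries of a model, or over all 40 libraries for differences between models. P-values were adjusted by the Benjamini-Hochberg method across every tested gene, with calls made below 0.05. The SE is the log2 fold change divided by the root of its F statistic. Fits were tested on simulated counts. The log2 CPM used a prior count of 2. Alternatives were DESeq2 1.42.0, voom of limma 3.58.1 with quality weights, size factor scaling, no filter, only the groups compared, and left-out libraries. Of the other pathway genes, the 8 called with the largest fold change were named in each comparison, and others are said to be chosen afterwards. Some genes that these rules pick are not reported here.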

Additional observations from a re-analysis of the deposited data

Results flagged for a closer look

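Of 72 pairs of a gene and a group, 8 had a library that stood apart from the other 4 by Dixon's criterion, which chance alone meets in about 1 of 20 groups. The high ones were Bmp5 at 90.4 CPM in bleomycin saracatinib library 3, Bmp5 at 106.8 CPM in Ad-TGF-β1 vehicle library 1, and Bmp6 at 146.4 CPM in Ad-TGF-β1 vehicle library 4. Chrdl1 at 32.0 CPM in saline vehicle library 3 and Id1 at 88.2 CPM in bleomycin vehicle library 3 were high too. The low ones were Bmp4 at 28.7 CPM in bleomycin vehicle library 3, Bmp2 at 5.10 CPM in saline vehicle library 5 and Id1 at 22.3 CPM in empty vector saracatinib library 3.

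Effects differed between conditions by edgeR's test of the difference, on the log2 scale. The saracatinib effect was higher in bleomycin than in saline lungs by 1.03 for Bmp3 and 1.57 for Chrdl1. The bleomycin effect minus the Ad-TGF-β1 effect was -1.59 for Bmp3, -0.57 for Bmp4, -1.48 for Bmp6 and -2.68 for Chrdl1. The saracatinib effect was higher in bleomycin than in Ad-TGF-β1 lungs by 0.56 for Bmp3, 1.17 for Bmp6 and 1.11 for Chrdl1.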

How the results depend on the processing

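No paired analysis was possible because the labels give no replicate numbers that groups share. Of the 108 fold changes of the 9 genes, 48 were called under some setting or had an unadjusted p under 0.05. Their 1442 values under other settings never turned the direction, while 62 lost a call and 36 gained one. The 48 were picked by their p-values and the settings share most libraries, so their steady direction is no independent support. Of the other 60, never called, 26 turned their sign under some setting, in 97 of 1707 values. The calls of Bmp3, Bmp6, Chrdl1 and Id2 with bleomycin held in all 26 settings. With Ad-TGF-β1, 4 of the 9 genes were called, but 7 by limma voom and 7 without the 2 libraries of each table farthest from their group, with 3 to 7 when 1 library was left out. For Ad-TGF-β1 with saracatinib against empty vector with vehicle the 3 calls became 5 under both of these, and 3 to 5 with a library left out. For saracatinib in saline lungs DESeq2 called 1 gene and edgeR 0. Leaving out a library gave 2 to 4 calls for the interaction in the bleomycin model (2 with all libraries), 0 to 3 for the saracatinib effect between models (3 with all libraries) and 0 to 1 for saracatinib in empty vector lungs (0 with all libraries). The shares of all genes called under these other settings were not counted, so the changed counts are not shown to be particular to the 9 genes. The libraries responsible are named beside the results, and the cause was not tested. Counting depth limits Bmp2 most, at 39 counts in its lowest library.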
